A study of Homo sapiens with 42 samples.

Results

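The genes described here are weakly expressed genes that begin over 10000 and up to 50000 bases downstream of a highly expressed gene on the same strand, measured in K562 cells. K562 is a long-established line that was started from a human chronic myeloid leukaemia, and its growth depends on the BCR-ABL1 kinase. Of 58243 genes in the nuclear RNA count table, 624 met the rule. A member had a mean level of 0.3 to under 10 CPM (counts of a gene scaled to the same total in every library) over the 15 nuclear libraries, overlapped no other gene on either strand, and had as its nearest upstream neighbour of high level (a mean of 10 CPM or more on the same strand) a gene whose 3′ end lay in that distance range. The level that chose the members was measured in the same nuclear libraries that are compared below, so the nuclear counts over members are descriptions. The mRNA libraries took no part in the choice, but they came from the same treatments as the nuclear ones.

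The cells were untreated (CTRL), or received imatinib (IM, 1 μM), which inhibits BCR-ABL1, JTE-607 (JTE, 5 μM), which targets the cleavage nuclease CPSF73, or KCl (110 mM), a hyperosmotic shock. Nuclear RNA depleted of ribosomal RNA was sequenced from CTRL, IM 1h, IM 18h, JTE 1h and KCl 1h cells. Poly(A) mRNA of whole cells was sequenced from CTRL, IM at 1, 6 and 18 h, JTE at 1, 6 and 18 h, and KCl at 1 and 3 h. Each group had 3 libraries from separate biological repeats of 1 cell line.

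At the end of a protein-coding gene, a poly(A) signal in the new transcript recruits the cleavage and polyadenylation complex, CPSF73 cuts the RNA, and the polymerase is released some distance further on. When cutting or release fails, the polymerase goes on into the intergenic sequence, which is called transcriptional readthrough, and can enter the next gene on the same strand. Inhibition of CPSF73 and hyperosmotic stress are both known to lengthen transcripts beyond gene ends. The values here are pairs of reads over annotated exons, so reads in the gap between an upstream gene and a member, or in a member's introns, were not counted, and the counting did not separate strands.

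The sequences at the 3′ ends of upstream genes are shown first, since those ends lie between the members and the highly expressed genes before them. The last 50 bases of each upstream gene were searched, on the strand of the gene, for AATAAA and, where that was not found, for ATTAAA. The first of these was found for 58.6% of the 572 upstream genes and for 60.7% of the 9289 high genes outside the mitochondrial genome, and ATTAAA alone for 14% of both sets. AATAAA stood before 60.9% of the 115 upstream genes of members that were higher with JTE-607 and before 58% of the other 457, and the shares for KCl were 59% of 273 and 58.2% of 299. The windows of 30 bases below belong to the upstream genes of 9 members named in the results (hg38, 5′ to 3′ on the gene's strand). The hexamer is in capitals.
POP7 before ZAN, chr7:100707459-100707488, plus strand: tataAATAAAaaatcctgttgcactagtgt
STXBP5 before YAP1P1, chr6:147390438-147390467, plus strand: gcaaAATAAAatactctaatctctcctgaa
ABCF2 before GBX1, chr7:151207837-151207866, minus strand: gggcctgacaaaAATAAAgggtgaactgtt
CPSF6 before C1GALT1P1, chr12:69274329-69274358, plus strand: tattgaaAATAAAacaaacttttgataaga
HNRNPUL2 before LRRN4CL, chr11:62712631-62712660, minus strand: ttagAATAAAtaaccatttggattgaattc
LINC00641 before OR5AU1, chr14:21200079-21200108, minus strand: ttttataaAATAAAtgtttttatgttggaa
PRKCB before LINC02194, chr16:24220582-24220611, plus strand: gatatgATTAAActgaattaatatatgcaa
MRFAP1L1 before LINC02481, chr4:6707701-6707730, minus strand: gtgtgtgttAATAAAagaatcataaacaaa
MAPK14 before MAPK13, chr6:36111207-36111236, plus strand: tatccataAATAAAgttttatgagaacaga
The upstream genes of GARIN1A, PPM1J-DT, OVGP1, CD74 and WTIP held neither hexamer in that window, which says only that these letters are not there.

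The 624 members followed 572 different upstream genes, of which 523 had 1 member and 49 had more, up to 3, so members are not all independent of each other. The median distance was 23504 bases, the median mean level 0.981 CPM and the median exon length 2223 bases. The upstream genes had a median of 57 CPM (10.1 to 2155). Protein-coding genes made up 340 of the members (54.5%, against 38.9% of all tested genes in the same range of levels), 158 were long non-coding RNA genes, 62 were processed pseudogenes and 3 were miRNA genes. The space between the upstream gene and the member held no annotated gene for 180 members and at least 1 same-strand gene for 273. For 232 members a highly expressed gene on the other strand also pointed its 3′ end at the member within 50000 bases, and since the counts do not separate strands, reads from that gene could not be told apart from the member's own. At the limits of the rule, NKAPL was inside at 0.302 CPM and ART5 outside at 0.2997 CPM, DEPDC7 was inside at 9.99 CPM and SLC45A3 outside at 10.03 CPM, C1GALT1P1 was inside at 10039 bases and PLPP2 outside at 9940 bases, and RAB4A-AS1 was inside at 49977 bases and MN1 outside at 50171 bases.

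Library totals ran from 16175394 to 25103205 counts in nuclear RNA and from 16439848 to 62953314 in mRNA. The low level of the members means that many values rest on few reads, and 29 members had no count in any CTRL library of nuclear RNA. The erythroid genes of the line were high in CTRL nuclear RNA (GATA1 at 221 ± 21.4 CPM, HBG2 at 1594 ± 278 CPM; SD, n = 3), and the lymphocyte genes CD3E, CD8A and MS4A1 were at 0.123, 0.0316 and 0 CPM. After filtering, 620 members were tested in nuclear RNA and 429 in mRNA, out of 21929 and 18095 genes. A gene was called when edgeR's quasi-likelihood test gave a Benjamini-Hochberg adjusted p, over all tested genes, under 0.05 and the log2 fold change was beyond 0.6 in either direction. A member can pass the filter through a treated group alone.

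After 1 h of JTE-607, the comparison that asks how the cell responds when the cleavage nuclease is targeted, 120 of 620 members (19.4%) were called higher than CTRL in nuclear RNA and 4 lower. Of all genes tested, 8.52% were called, 7% higher and 1.51% lower. The median log2 fold change was 0.229 over the members and -0.006 over all genes. Part of that count comes from the rule itself, since 204 members (32.7%) had a CTRL mean under 0.3 CPM and entered through the treated libraries. When the level of members was taken from the CTRL libraries, 413 were tested, 48 (11.6%) were called higher and 4 lower, with a median of 0.035. Of all genes in the same range of CTRL level, 8.46% were called higher. Chosen the same way, 38.0% of genes within 10000 bases of a high gene were called higher, and 7.50% of genes with no high gene within 50000 bases upstream. High genes were still defined by the mean over all nuclear libraries. They were left out of the members and of the set of all genes, so treated libraries kept a part in this choice. The set of all genes was not held to the rule against overlap.

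YAP1P1, a processed pseudogene of the transcriptional coactivator YAP1, lay at chr6:147406889-147408281, 16413 bases after STXBP5, which encodes a regulator of vesicle fusion. It had 0.0443, 0.0449 and 0.101 CPM in the CTRL libraries and 5.57, 3.31 and 4.46 CPM with JTE-607. Absence of overlap between the 2 groups was a condition of the naming rule. The ratio of summed counts was 72.6 (exact 95% interval 28.1 to 268, counting error only, edgeR adjusted p 7.44e-09). STXBP5 itself had a log2 fold change of 0.29 (edgeR adjusted p 0.498). The other pseudogene among the largest rises was C1GALT1P1, a copy of a galactosyltransferase gene, 10039 bases after CPSF6, which encodes a subunit of a cleavage factor. Its 3 CTRL libraries held 1 count each, at 0.0443, 0.0449 and 0.0505 CPM, and JTE-607 gave 1.86, 1.10 and 1.59 CPM (ratio 33.1, interval 11 to 163, edgeR adjusted p 2.97e-06). Only uniquely mapped reads were kept, so counts of such copies leave out reads that match the parent gene equally well.

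ZAN (chr7:100733626-100797797), which encodes a sperm protein that binds the egg coat, starts 26131 bases after POP7, a gene for a subunit of ribonuclease P. It had no count in the CTRL libraries and 1.01, 0.767 and 1.43 CPM with JTE-607, which is at least 7.67-fold higher than a floor of 3 counts per library (0.14 CPM, edgeR adjusted p 0.000249). A high gene on the other strand faces ZAN from 4768 bases. GBX1, a homeobox gene 33092 bases after ABCF2, had 1 count in all CTRL libraries together and 0.970, 1.20 and 0.916 CPM with JTE-607, and also has a facing high gene, 4153 bases away. GARIN1A, which encodes a Golgi-associated protein, rose from 0.0443, 0.135 and 0.0505 CPM to 3.21, 1.63 and 4.10 CPM (ratio 39.5, interval 16.7 to 123, edgeR adjusted p 1.43e-05) and has no facing high gene within 50000 bases. The 5 members with the largest rise under the naming rule were thus all near 0 in CTRL cells. They met the level rule through treated libraries, so a rise in some treated group was fixed by the choice.

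Members that were already above 0.3 CPM in CTRL cells are shown by 5 further genes, those with the largest rise among the members chosen by CTRL level, a list added after the values were seen. LRRN4CL, 22731 bases after HNRNPUL2, rose from 0.310, 0.225 and 0.505 CPM to 4.30, 2.93 and 3.86 CPM (log2 fold change 3.41, with SE 0.31 and adjusted p 6.21e-07 by edgeR). ZP1, a zona pellucida glycoprotein gene 16481 bases after CCDC86, rose from 0.354, 0.314 and 0.606 CPM to 4.09, 3.12 and 4.38 CPM (3.19, SE 0.31, edgeR adjusted p 1.44e-06). In both genes the lowest JTE-607 library was several times the highest CTRL library, and HNRNPUL2 and CCDC86 had log2 fold changes of 0.10 and -0.16 (edgeR adjusted p 0.56 and 0.636). OVGP1, which encodes an oviduct glycoprotein, lies 12113 bases after WDR77 and had 0.620, 0.314 and 0.707 CPM in CTRL cells and 6.45, 2.83 and 5.50 CPM with JTE-607 (3.17, SE 0.33, edgeR adjusted p 2.65e-06). CD74 (chr5:150401637-150412929), the invariant chain of class II histocompatibility molecules, lies 30261 bases after RPS14, a ribosomal protein gene. It had 0.576, 0.898 and 1.26 CPM in CTRL cells and 7.04, 5.99 and 8.33 CPM with JTE-607 (2.97, SE 0.31, edgeR adjusted p 2.59e-06), but a high gene on the other strand ends 1329 bases from its 3′ end. C1orf162, 11019 bases after the ATP synthase gene ATP5PB and with no facing high gene within 50000 bases, had 1.46, 1.35 and 1.31 CPM in CTRL cells and 9.70, 7.48 and 8.60 CPM with JTE-607 (2.64, SE 0.20, edgeR adjusted p 5.34e-08). Absence of overlap between CTRL and JTE-607 libraries was a condition for all 5.

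The 4 members called lower with JTE-607 included C20orf203 and ODC1-DT, both of which met the naming rule. C20orf203 fell from 7.44, 7.68 and 9.70 CPM to 4.77, 4.89 and 4.42 CPM (log2 fold change -0.82, with SE 0.19 and adjusted p 0.00728 by edgeR), a call that was lost without CTRL replicate 3, at -0.70. ODC1-DT, a transcript divergent from the polyamine synthesis gene ODC1, had 5.00, 3.46 and 4.39 CPM in CTRL cells and 2.7, 3.26 and 2.35 CPM with JTE-607 (-0.64, SE 0.20, edgeR adjusted p 0.0485). It lost its call in 6 of 12 alternatives, among them DESeq2 and 4 of the 6 fits without 1 library.

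**Figure D1:**
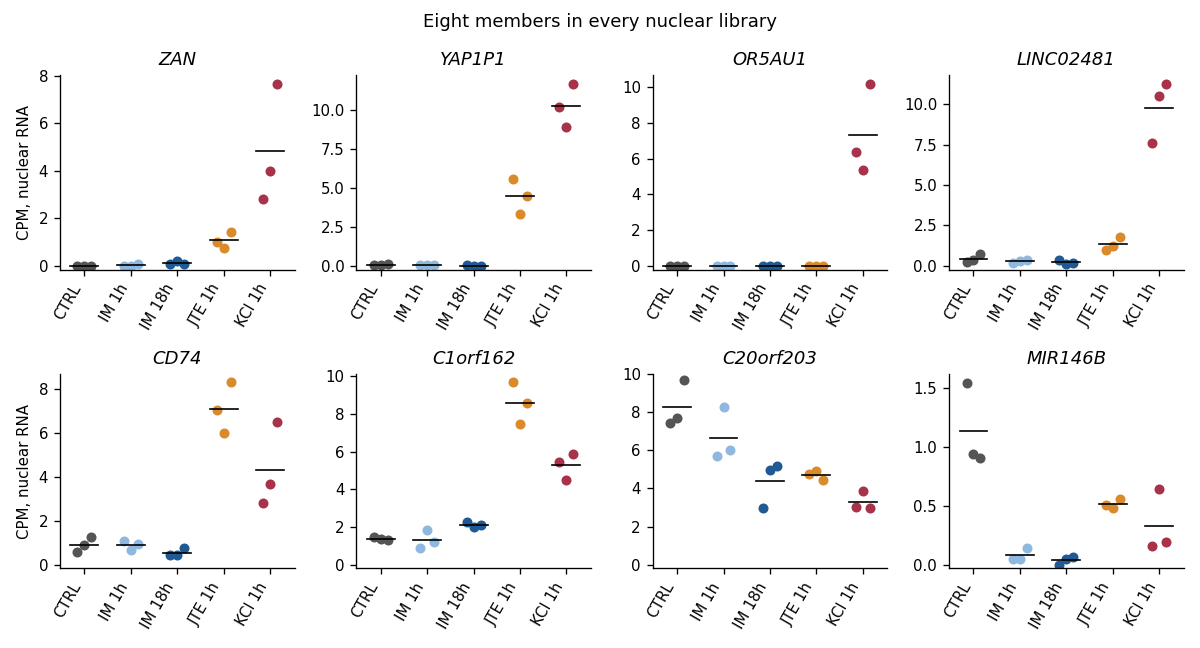
CPM in nuclear RNA (vertical axis, linear) of 8 members in the 3 libraries of each of 5 groups (points), with the group mean as a line. ZAN, YAP1P1, LINC02481, CD74 and C1orf162 are higher with JTE-607 and KCl than in every CTRL library, OR5AU1 is above 0 only with KCl, and C20orf203 and MIR146B have lower treated means.

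After 1 h of KCl, a hyperosmotic shock, the members stood further above CTRL: 291 of 620 (46.9%) were called higher and 17 lower, against 15.3% and 8.50% of all genes tested (23.8% in all), and the median log2 fold change was 0.750 against 0.020. Among members chosen by CTRL level, 109 of 413 (26.4%) were called higher and 17 lower, with a median of 0.294, against 13.7% higher for all genes in that range of CTRL level. By the same choice, the share was 38.8% for genes within 10000 bases of a high gene and 13.2% for genes with none within 50000 bases. Of the 201 tested members with a CTRL mean under 0.3 CPM, 182 were called higher with KCl, a count that their entry through treated libraries largely fixes. With the 29 members that had no CTRL count set to their bound against the floor, the median over all members stayed at 0.750 for KCl, and was 0.189 in place of 0.229 for JTE-607 and 0.214 in place of 0.273 for IM 18h. Of the 572 upstream genes, 3 were called higher with KCl and 13 lower, with a median of -0.009.

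OR5AU1 (chr14:21148370-21159060), an olfactory receptor gene, had no count in any CTRL, imatinib or JTE-607 library and 6.39, 5.39 and 10.2 CPM with KCl, at least 52.4-fold above the floor (edgeR adjusted p 4.32e-07). It lies 41019 bases after LINC00641, an upstream gene that did change itself: LINC00641 rose with JTE-607 (log2 fold change 1.92, adjusted p 1.16e-07 by edgeR) and with KCl (1.35, edgeR adjusted p 8.25e-07), while OR5AU1 was at 0 with JTE-607. LINC02194, a long non-coding RNA gene 15493 bases after the protein kinase C gene PRKCB, had no count in CTRL cells, between 0.0398 and 0.0844 CPM with JTE-607, and 4.99, 3.77 and 6.29 CPM with KCl (at least 35.9-fold, edgeR adjusted p 8.42e-09). PPM1J-DT, 14926 bases after the helicase gene MOV10, likewise had no CTRL count and reached 2.96, 4 and 6.48 CPM with KCl (at least 32.1-fold, edgeR adjusted p 1.23e-08). In OR5AU1, LINC02194 and PPM1J-DT the JTE-607 libraries stayed at or under 0.0844 CPM. ZAN was also among the 5 largest rises, with 2.81, 4 and 7.65 CPM (at least 34.5-fold, edgeR adjusted p 1.6e-07). OR5AU1 met the level rule through its KCl libraries alone. LINC02194, PPM1J-DT and ZAN, without a CTRL count, met it through treated libraries. The rises of these genes were thus largely fixed by the choice, and their bounds and p-values are descriptions.

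Of members chosen by CTRL level, the 5 with the largest rise after KCl were LINC02481, OVGP1, WTIP, SERPINC1 and MAPK13, again a list added after the values were seen. LINC02481 had 0.221, 0.359 and 0.757 CPM in CTRL cells, 0.970, 1.20 and 1.79 CPM with JTE-607 and 7.58, 10.5 and 11.3 CPM with KCl (log2 fold change 4.48, with SE 0.33 and adjusted p 3.66e-09 by edgeR). OVGP1 reached 7.58, 7.18 and 11.5 CPM (4.01, SE 0.32, edgeR adjusted p 1.14e-08). WTIP, which encodes a LIM domain protein, lies 10387 bases after the SUMO-activating enzyme gene UBA2 and rose from 0.576, 1.03 and 0.656 CPM to 7.38, 9.02 and 18.9 CPM (3.95, SE 0.34, edgeR adjusted p 4.54e-08), while JTE-607 gave 1.05, 1.30 and 1.43 CPM (0.73, edgeR adjusted p 0.309). MAPK13, a p38 kinase gene 16573 bases after its relative MAPK14, had 0.885, 1.12 and 0.959 CPM in CTRL cells and 5.35, 8.01 and 11.7 CPM with KCl (3.08, SE 0.26, edgeR adjusted p 1.73e-08). SERPINC1, the antithrombin gene, rose from 0.354, 0.314 and 0.303 CPM to 2.7, 3.13 and 6.04 CPM (3.59, SE 0.36, edgeR adjusted p 2.17e-07), with a facing high gene only 255 bases from its 3′ end. KCl replicate 3 was the highest library for each of these genes.

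Among members with a symbol, at least 1 CPM in CTRL cells and no overlap between groups, a Y RNA gene, MIR146B (given with imatinib) and OTULIN-DT had the largest falls with KCl. The Y RNA gene (ENSG00000212319) had 0.797, 1.12 and 1.36 CPM in CTRL cells and 0.260, 0.184 and 0.0975 CPM with KCl (log2 fold change -2.55, with SE 0.42 and adjusted p 6.38e-05 by edgeR). OTULIN-DT went from 1.02, 1.39 and 1.72 CPM to 0.571, 0.414 and 0.439 CPM (-1.51, SE 0.33, edgeR adjusted p 0.00111). The Y RNA gene belongs to a multicopy family, so its unique reads may leave out reads that other copies share.

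Set directly against each other at 1 h, KCl was above JTE-607 for 218 members and below it for 21, against 10.7% higher and 5.24% lower for all genes tested (15.9% in all), and the median difference was 0.474 on the log2 scale. By CTRL level the counts were 71 of 413 (17.2%) higher and 20 lower, against 7.95% higher for all genes at that level. The 201 tested members with a CTRL mean under 0.3 CPM entered through treated libraries. Among them KCl was above JTE-607 for 147 and below it for 1. The subsets that follow were called on these same libraries and are descriptions. Of the 291 members called higher with KCl, 206 (70.8%) were also above JTE-607, and of the 120 called higher with JTE-607, 6 were lower with KCl than with JTE-607. LRRN4CL was one of those, with 1.25, 1.98 and 2.44 CPM after KCl (KCl minus JTE-607 -0.95, SE 0.24, edgeR adjusted p 0.0076), and C1orf162 was another, with 5.45, 4.51 and 5.85 CPM (-0.69, SE 0.17, edgeR adjusted p 0.00666). C1GALT1P1 had 1.09, 1.11 and 1.66 CPM after KCl, and its difference from JTE-607 did not pass the test (-0.23, SE 0.29, edgeR adjusted p 0.753).

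**Figure D2:**
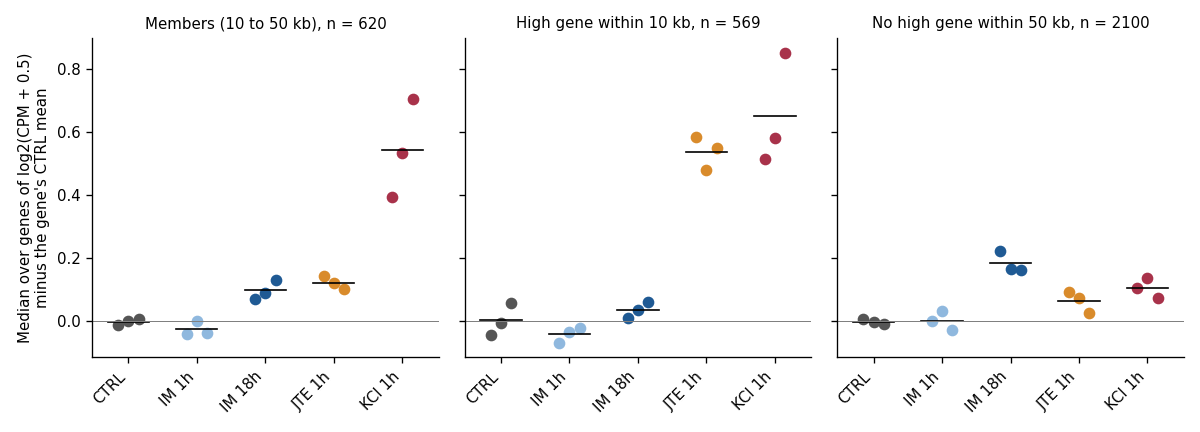
Median over genes of log2(CPM + 0.5) minus each gene's CTRL mean (vertical axis) for each nuclear library (points), with the mean of the 3 library medians as a line, in 620 members, 569 genes within 10000 bases of a high gene and 2100 genes with none within 50000 bases. Members rise most with KCl (0.393, 0.534 and 0.704), and the nearer genes with both JTE-607 (0.584, 0.480 and 0.548) and KCl (0.515, 0.581 and 0.851). All 3 sets were chosen by the mean over all nuclear libraries, so part of these heights comes from the rule. For members chosen by CTRL level, edgeR's median log2 fold change was 0.294 with KCl and 0.035 with JTE-607.

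The response was then set against distance. With JTE-607 the share of members called higher was 27.2% at 10 to 20 kb, 15.5% at 20 to 30 kb, 18.6% at 30 to 40 kb and 8.33% at 40 to 50 kb. It was 47.5% for genes of the same level up to 5 kb away, and 12.2% for those over 100 kb away or with no high gene upstream. With KCl the shares in the 4 member bins were 56.6%, 38.5%, 51.0% and 35.4%, against 53.0% for genes up to 5 kb away and 23.2% beyond 100 kb. The lowest member bin for KCl was therefore above the farthest class, and the lowest for JTE-607 was not. Among members chosen by CTRL level the shares were 17.4%, 7.75%, 11.7% and 6.67% for JTE-607 and 36.9%, 17.8%, 26.7% and 20% for KCl, so neither series fell evenly with distance.

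**Figure D3:**
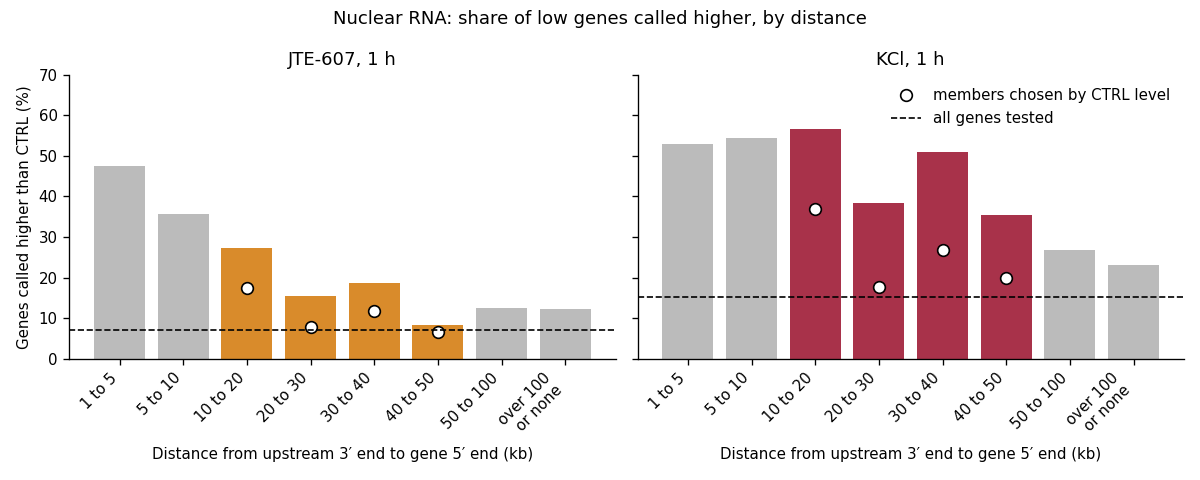
Share of low-level genes called higher than CTRL in nuclear RNA (vertical axis, percent) by the distance from the upstream 3′ end (horizontal axis, kb), for JTE-607 and KCl, with members in colour, other distances in grey, members chosen by CTRL level as open circles and all genes tested as a dashed line. With JTE-607 the bars are at 47.5% nearest to the upstream gene and at 8.33% at 40 to 50 kb, and with KCl they stay between 35.4% and 56.6% up to 50 kb.

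Responses were also compared where 1 upstream gene had several members. Of the 49 such upstream genes, the nearest member had a larger log2 fold change than the farthest in 21 with JTE-607 and in 14 with KCl, and the median difference with KCl was -0.470 (nearest minus farthest). Some of these members, such as MRPL42P2, MKRN8P and OR5AU1, had no CTRL count and entered through treated libraries, so their fold changes have no firm size. These counts therefore cannot decide the part of distance, which was not tested. After MOV10, PPM1J-DT lay at 14926 bases and TAFA3, a gene for a secreted protein, at 19673 bases. Both were at 0 in CTRL cells and entered through treated libraries. Their KCl means were 4.48 ± 1.81 and 1.6 ± 0.24 CPM (SD, n = 3). After P4HA2, 3 members without symbols at 10710, 28073 and 42279 bases had log2 fold changes of -0.68, -0.69 and -0.42 with KCl. These 2 loci were chosen after their values were seen.

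The members were also divided by what lies in the gap, by the upstream level and by type, as descriptions with no test. With KCl the share was 69.7% of 178 members with an empty gap and 37.8% of 442 with a gene in it, and with JTE-607 it was 32.6% and 14%. By CTRL level the shares were 46.1% and 21.0% for KCl and 23.6% and 8.33% for JTE-607. Empty gaps were also shorter, with a median distance of 18107 bases against 26139, and the part of distance in this difference was not tested. The level of the upstream gene went with the KCl share, from 35.5% in the lowest of 4 equal classes to 40.9%, 48.1% and 63.2% in the highest, whereas the JTE-607 shares were 20.6%, 16.2%, 20.5% and 20%. By CTRL level the KCl shares were 18.1%, 22.4%, 34.5% and 32.5%. With a facing high gene within 50000 bases, 46.3% of members were called higher with KCl and 19.0% with JTE-607, and without one 47.3% and 19.5%. Processed pseudogenes had the largest shares of the types with over 20 members (69.4% with KCl, 37.1% with JTE-607), followed by protein-coding genes (49.9% and 18.6%) and long non-coding RNA genes (35.5% and 15.5%). By CTRL level the KCl shares of these types were 37.0%, 31.0% and 16.4%.

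Genes of low level that lie inside the gaps and are no members gave a separate view of the same stretches. Of 78 tested ones on the strand of the upstream gene, 37 (47.4%) were called higher with JTE-607 and 42 (53.8%) with KCl. Of 80 on the other strand, 25 (31.2%) and 49 (61.2%) were called higher, and none of these genes was called lower with JTE-607. Over all genes tested the shares higher were 7% and 15.3%. Chosen by a CTRL mean of 0.3 to under 10 CPM, 25 of 55 (45.5%) on the same strand were higher with JTE-607 and 21 (38.2%) with KCl, and 8 of 43 (18.6%) and 15 (34.9%) on the other strand, against 8.46% and 13.7% of all genes at that level. Because strands were not separated in counting, reads along the upstream gene's strand also count for genes on the other strand.

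Levels were also compared per exon base. Exon density of a member, as a percentage of its upstream gene's, had a median of 2.87 to 3.11 over the CTRL libraries, 2.49 to 3.08 with IM 1h, 4.38 to 4.47 with IM 18h, 4.75 to 5.17 with JTE 1h and 7.32 to 9.80 with KCl 1h. For members chosen by CTRL level the medians were 6.51 to 7.06 in CTRL, 7.71 to 8.72 with IM 18h, 7.78 to 8.65 with JTE-607 and 8.25 to 9.86 with KCl. In both sets all 3 libraries of IM 18h, of JTE 1h and of KCl 1h lay above all CTRL libraries. By CTRL level these 3 treatments overlapped one another. The upstream genes, which are the denominator, had a median log2 fold change of -0.155 at IM 18h, -0.038 at JTE 1h and -0.009 at KCl 1h. The part of the lower upstream level in the IM 18h values was not tested.

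Imatinib was asked about at an early and a late time. At 1 h, no member was called higher and 1 lower in nuclear RNA by edgeR (0.00456% and 0.0410% of all genes tested, 0.0456% in all), 13 members had an unadjusted p under 0.05, and DESeq2 also called 1. That member was MIR146B (chr10:102436512-102436584), a miRNA gene 33983 bases after NFKB2, with the mature products below (RefSeq, GRCh38.p14; seed, bases 2 to 8, in capitals).
hsa-miR-146b-5p: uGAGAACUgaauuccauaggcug
hsa-miR-146b-3p: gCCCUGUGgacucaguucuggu
MIR146B had 1.55, 0.943 and 0.909 CPM in CTRL cells and 0.0490, 0.0438 and 0.143 CPM after 1 h of imatinib (log2 fold change -3.73, with SE 0.57 and adjusted p 0.00943 by edgeR). It was also below CTRL at 18 h, with 0, 0.0498 and 0.0618 CPM (-4.92, SE 0.67, edgeR adjusted p 5.91e-06), values that overlap those at 1 h. With KCl it was below CTRL too, with 0.156, 0.644 and 0.195 CPM (-1.72, SE 0.44, edgeR adjusted p 0.00474). These are reads over a 73-base precursor, not the mature miRNA. The 1 h call was lost without IM 1h replicate 1 or 2 or without CTRL replicate 1, with fold changes from -3.54 to -3.42, and a facing high gene ends 25297 bases away.

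At 18 h of imatinib, 151 members (24.4%) were called higher and 74 (11.9%) lower, against 17.2% and 15.4% of all genes tested (32.6% in all), with a median log2 fold change of 0.273. Among all tested genes in the same range of levels the shares were 22.7% and 12%, near those of the members. Chosen by CTRL level, 115 of 413 members (27.8%) were higher and 71 (17.2%) lower, against 21.6% and 13.6% of genes at that level. Unlike the other treatments, genes with no high gene within 50000 bases had the larger share called higher (28.9%, against 18.8% of genes within 10000 bases), and 123 of the 572 upstream genes were called lower and 55 higher. DNAJB2, a co-chaperone of the DnaJ family, rose from 1.86, 2.38 and 2.78 CPM to 24.1, 18.9 and 24.5 CPM (3.20, SE 0.23, edgeR adjusted p 2.49e-09), with all other groups between 1.43 and 3.11 CPM. GPNMB, a lysosomal and melanosomal glycoprotein gene, had 0.354, 0.0449 and 0.202 CPM in CTRL cells, 4.41, 2.04 and 2.91 CPM with IM 18h (3.87, SE 0.47, edgeR adjusted p 2.09e-06) and 3.95, 4.05 and 6.97 CPM with KCl (4.60, SE 0.45, edgeR adjusted p 2.21e-07). RASGEF1C, a guanine nucleotide exchange factor gene, rose to 4.62, 1.79 and 1.86 CPM from at most 0.354 CPM (3.33, SE 0.43, edgeR adjusted p 3.31e-06). RNF224, a ring finger gene with 9 counts in all CTRL libraries together, reached 2.04, 1.84 and 1.86 CPM (ratio of summed counts 13.8, interval 7.03 to 31). LINC02569 rose from 0.310, 0.135 and 0.455 CPM to 2.33, 1.89 and 1.86 CPM (2.7, SE 0.37, edgeR adjusted p 6.2e-06). GPNMB, RASGEF1C, RNF224 and LINC02569 had CTRL means under 0.3 CPM and met the level rule through treated libraries. A rise of these genes in some treated group was thus fixed by the choice.

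Besides MIR146B, HES7 and GPR85 had the largest falls at 18 h among members that met the same conditions. HES7, a transcription factor gene of the segmentation clock, went from 1.33, 1.17 and 0.656 CPM to 0, 0.0996 and 0.124 CPM (log2 fold change -3.93, with SE 0.67 and adjusted p 6.98e-05 by edgeR), and its upstream gene, the clock gene PER1, had a log2 fold change of -1.49. GPR85, an orphan receptor gene of the brain, went from 1.99, 1.93 and 1.31 CPM to 0.212, 0.199 and 0.495 CPM (-2.66, SE 0.41, edgeR adjusted p 2.32e-05). SMIM30 before GPR85 and NFKB2 before MIR146B were also called lower at 18 h (-0.905 and -0.768, edgeR adjusted p 0.00129 and 0.000511). HLA-E, before the rising LINC02569, was called lower too (-0.948, edgeR adjusted p 0.00103). Between IM 18h and IM 1h, 153 members were higher at 18 h and 68 lower, against 16.8% and 14.5% of all genes tested (31.3% in all) and 22.7% and 8.97% of genes in the same range of levels.

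In the mRNA libraries, which had no part in choosing the members, 429 members were tested. The nuclear libraries that chose them came from the same treatments, so the mRNA counts are not free of the choice. Of the 429, 79 had a nuclear CTRL mean under 0.3 CPM and entered through treated nuclear libraries. These 79 gave 36 of the members called higher with KCl at 1 h, 41 at 3 h, and 32 with JTE-607 at 6 h. With JTE-607, 4 members were called higher and 1 lower at 1 h (0.387% and 0.464% of all genes tested, 0.851% in all), 77 and 28 at 6 h (17.9% higher, against 6.73% and 6.47% of all genes, 13.2% in all), and 20 and 5 at 18 h (against 3.29% and 2.09%, 5.39% in all). With KCl, 53 were higher and 17 lower at 1 h (12.4% higher, against 2.51% and 2.94%, 5.45% in all), and 74 and 24 at 3 h (17.2%, against 4.55% and 7.33%, 11.9% in all). By CTRL level in nuclear RNA, 344 members were tested. With KCl at 1 h, 4.94% of these were higher and 4.94% lower, against 2.7% and 5.84% of all tested genes in that range of CTRL level, and at 3 h 9.59% and 6.98%, against 5.27% and 11.8%. With JTE-607 at 6 h the shares were 13.1% and 7.56%, against 11.7% and 6.21%, and at 18 h 5.52% and 1.45%, against 5.90% and 1.56%. The share of members called higher was thus above that of genes of their level for KCl at both times, slightly above it for JTE-607 at 6 h and slightly below it at 18 h, and these differences were not tested. The 18 h JTE-607 count fell from 25 to between 8 and 21 when 1 library was left out, with 8 without CTRL replicate 1, 9 without JTE 18h replicate 3, 13 without JTE 18h replicate 1 and 15 without CTRL replicate 2. The 1 h count of 5 fell to 2 without JTE 1h replicate 3 or CTRL replicate 3 and to 3 without CTRL replicate 1 or 2.

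YAP1P1 had the largest rise in mRNA at JTE 6h, KCl 1h and KCl 3h. Its nuclear CTRL mean was 0.0634 CPM, and it became a member through the nuclear JTE 1h and KCl 1h libraries. The bounds and p-values of YAP1P1 below are therefore descriptions. It had no count in CTRL mRNA, 0.312, 0.492 and 1.77 CPM after 1 h of JTE-607, 1.41, 0.750 and 3.07 CPM after 6 h and at most 0.0553 CPM after 18 h. KCl gave 3.89, 4.61 and 6.52 CPM at 1 h and 5.09, 6.18 and 6.72 CPM at 3 h. Against a floor of 3 counts per library (0.163 CPM) it was at least 10.7-fold higher at JTE 6h, 30.7-fold at KCl 1h and 36.8-fold at KCl 3h (edgeR adjusted p 1.89e-05, 1.92e-06 and 3.23e-07). LINC02481 also rose with KCl, further at 3 h than at 1 h, from at most 0.224 CPM in CTRL mRNA to 1.97, 1.95 and 3.77 CPM at 1 h and 11.5, 7.15 and 13.8 CPM at 3 h (log2 fold change 3.95 and 6.03, edgeR adjusted p 0.000556 and 7.92e-07). OVGP1 reached 4.20, 5.89 and 8.59 CPM at 1 h and 9.99, 13.0 and 17.5 CPM at 3 h of KCl, from 0.382, 0.473 and 1.51 CPM.

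LINC01963, a long non-coding RNA gene 10742 bases after the DNA repair gene XRCC5, marked the JTE-607 time course. Its mRNA level was 5.02, 2.42 and 5.66 CPM in CTRL cells, 5.78, 8.12 and 16.5 CPM after 1 h of JTE-607, 54.0, 37.8 and 67.2 CPM after 6 h (log2 fold change 3.68, adjusted p 9.27e-07 by edgeR) and 24.9, 15.6 and 23.1 CPM after 18 h (2.21, edgeR adjusted p 0.000958). KCl left it at 5.50, 5.54 and 8.74 CPM at 1 h and 2.98, 4.40 and 4.05 CPM at 3 h in mRNA (0.62 and -0.15, edgeR adjusted p 0.568 and 0.863), although in nuclear RNA KCl at 1 h gave 16.2, 14.4 and 19.0 CPM against 3.28, 2.38 and 2.98 CPM in CTRL cells (2.53, SE 0.18, edgeR adjusted p 2.01e-09). CD74 mRNA rose from 0.164, 0.105 and 0.168 CPM to 0.572, 1.33 and 1.77 CPM after 1 h of JTE-607 (ratio of summed counts 8.46, interval 4.07 to 20.3, edgeR adjusted p 0.0437), a call lost in 6 of 12 alternatives, 5 of which left out 1 library (with fold changes from 2.72 to 3.18). C1orf162 mRNA had 1.15, 1.05 and 0.672 CPM in CTRL cells and 3.02, 4.43 and 5.41 CPM after 1 h of JTE-607 (2.20, edgeR adjusted p 0.000414).

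The members with the largest falls in mRNA under these treatments were as follows. BTN2A3P, a butyrophilin pseudogene, went from 4.96, 4.52 and 7.11 CPM to 2.65, 2.41 and 2.29 CPM after 1 h of JTE-607 (log2 fold change -1.13, adjusted p 0.0103 by edgeR), a call that was lost in 3 alternatives, among them the fits that left out JTE 1h replicate 3 or CTRL replicate 3 (-1.08 and -0.92). MILIP, a long non-coding RNA gene, went from 2.02, 2.73 and 2.41 CPM to 0.589, 0.482 and 0.275 CPM at 6 h (-2.35, edgeR adjusted p 1.29e-06). WNT10B, which encodes a secreted Wnt ligand, had 2.40, 1.94 and 2.07 CPM in CTRL mRNA and 0.867, 0.852 and 0.884 CPM at 18 h of JTE-607 (-1.37, edgeR adjusted p 0.00911). C20orf203 fell with KCl from 1.91, 1.84 and 1.57 CPM to 0.528, 0.267 and 0.148 CPM at 3 h (-2.44, edgeR adjusted p 0.000736). LINC02918 fell from 1.15, 1.10 and 1.01 CPM to 0.311, 0.350 and 0.259 CPM at 1 h of KCl (-1.77, edgeR adjusted p 0.00944), a call lost without KCl 1h replicate 3, at -1.62.

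**Figure D4:**
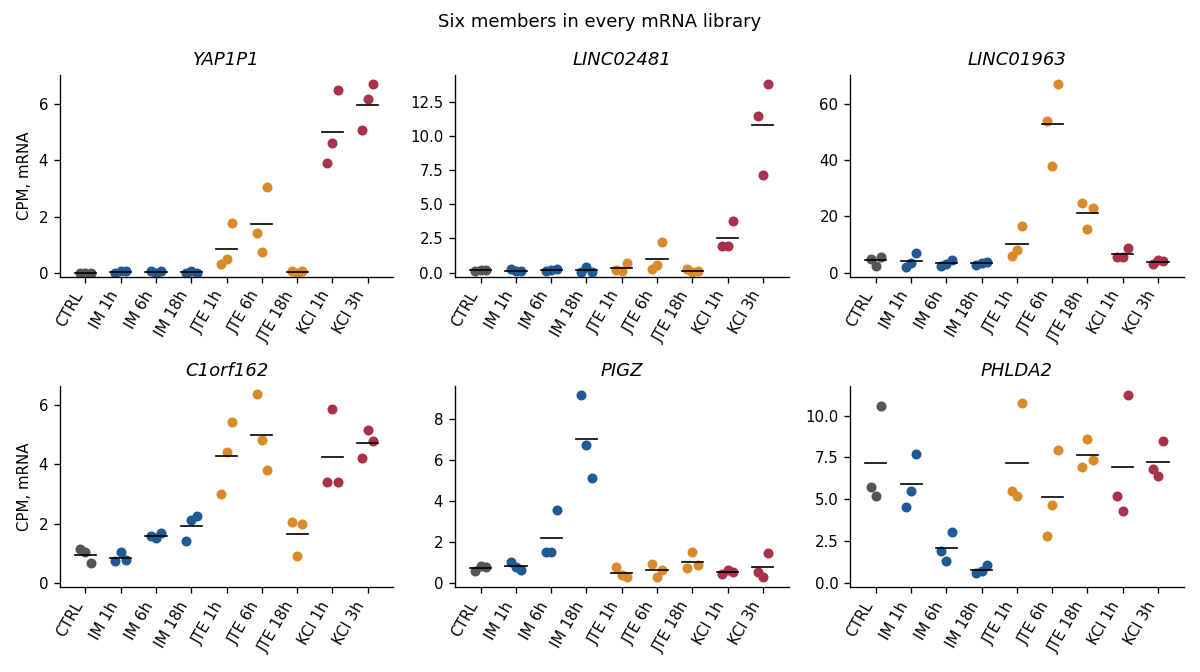
CPM in mRNA (vertical axis, linear) of 6 members in the 3 libraries of each of 9 groups (points), with the group mean as a line. YAP1P1 and LINC02481 are highest with KCl, LINC01963 after 6 h of JTE-607, PIGZ is raised and PHLDA2 lowered with 6 and 18 h of imatinib.

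With imatinib, no member was called in mRNA at 1 h by edgeR or DESeq2 (0% of all genes tested higher, 0.0166% lower), and 6 had an unadjusted p under 0.05. At 6 h, 37 were higher and 7 lower (5.82% and 4.12% of all genes tested, 9.94% in all), and at 18 h 114 and 43 (17.2% and 13.2%, 30.5% in all). Beside tested genes of the same nuclear level the members' shares were close, with 8.62% higher against 8.66% at 6 h and 26.6% against 26% at 18 h. The 6 h count of 44 fell to 18 without CTRL replicate 3, to 21 without IM 6h replicate 3, and to 19 without CTRL replicate 1. PIGZ, which encodes a mannosyltransferase of glycolipid anchor synthesis, rose from 0.6, 0.841 and 0.784 CPM to 9.16, 6.73 and 5.10 CPM at 18 h (log2 fold change 3.20, adjusted p 4.26e-06 by edgeR). Its upstream gene MELTF was also called higher at 18 h in nuclear RNA (1.515, edgeR adjusted p 4.77e-07). GPNMB mRNA had 0.164, 0.473 and 0.168 CPM in CTRL cells and 0.816, 0.944 and 2.05 CPM at 6 h (2.13, edgeR adjusted p 0.0169), a call lost without IM 6h replicate 3, CTRL replicate 1 or CTRL replicate 3 (1.59, 1.88 and 1.85). GPNMB had a nuclear CTRL mean of 0.200 CPM and entered through treated nuclear libraries, so its mRNA rise is a description. PHLDA2, an imprinted gene that restrains placental growth, fell from 5.73, 5.20 and 10.6 CPM to 1.90, 1.36 and 3.07 CPM at 6 h (-1.82, edgeR adjusted p 0.00355).

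Of 26 genes for cleavage, polyadenylation and termination factors, a list set against the members as background, 1 was called with JTE-607 in nuclear RNA and 1 with KCl. PCF11, which links cleavage to polymerase release, rose with JTE-607 (log2 fold change 0.88, with SE 0.12 and adjusted p 3.94e-05 by edgeR), and PPP1R10, a subunit of a phosphatase complex that acts at termination, rose with KCl (1.03, SE 0.11, edgeR adjusted p 5.93e-07). With IM 18h, CSTF2, CLP1 and SSU72 were lower (-0.82, -1.07 and -0.69, edgeR adjusted p 1.51e-06, 2.29e-06 and 1.83e-05), and none was called with IM 1h. In mRNA, JTE-607 raised PCF11 at 1 h and CSTF3, PCF11 and RBBP6 at 6 and 18 h, with CPSF4 lower at 6 h, KCl raised PPP1R10 at both times and RBBP6 at 3 h, with CSTF2T lower at 3 h, and imatinib lowered CSTF2, CLP1 and SSU72 at 18 h.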

How the data were processed

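The authors deposited unnormalized counts, 1 value per gene and library, obtained by running featureCounts on pairs of reads that had been trimmed, deduplicated and aligned to hg38 with STAR, keeping unique alignments and introns of up to 10000 bases. Pairs over exons were counted without a strand option although the libraries keep strand. The annotation release is not given in the sources used here; 619 of the 624 members are in GENCODE 44, and 506 have a symbol.

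CPM are counts divided by the library total. All libraries of a fraction were tested in 1 fit with the quasi-likelihood test of edgeR 4.0.16 (R 4.3.3), using TMM factors, filterByExpr, a robust estimate of the spread and 1 term per group, and the procedure was checked on simulated data. Of the called members with a symbol, a group mean of at least 1 CPM on the higher side and libraries that did not overlap, the 5 largest rises and 3 largest falls were named for each nuclear comparison with CTRL, and 1 of each for mRNA. Some genes that the rules name are not reported here. The members and lists were chosen with earlier results of these data known.

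The alternatives were DESeq2 1.42.0, RLE size factors, no filter, no fold change threshold, fits of 2 groups, a replicate block, members by CTRL level or without a facing high gene, and leaving out each library. Choosing by CTRL level in mRNA, in KCl against JTE 1h and in IM 18h against IM 1h, the comparison classes by CTRL level, the gap genes by CTRL level, the 10 members named by CTRL level and the medians with bounds were added after seeing the data.

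Replicate numbers come from the sample titles. In nuclear RNA the deviations from the group means correlated between same-numbered libraries of CTRL and each treatment (0.234 to 0.891), so the numbers pair those libraries; in mRNA they did not throughout (-0.367 to 0.877). Intervals and floors cover counting error only.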

Additional observations from a re-analysis of the deposited data

Results flagged for a closer look

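The imatinib time points were compared gene by gene in nuclear RNA by edgeR, and 221 members were called between IM 18h and IM 1h. Against CTRL, 1 member was called at 1 h and 225 at 18 h. The numbers of members called were not themselves compared by a test. Over all genes tested, 31.3% were called between the time points, 0.0456% at 1 h and 32.6% at 18 h. The difference between the time points was thus not confined to the members. Groups of 3 libraries were too small for the check of single samples that stand apart.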

How the results depend on the processing

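Of 238 other settings of the counts and medians, 189 stayed within the limits used here (1.5 times for a count, 1 SD of library medians for a median) and 49 moved. Of 455 settings of the 38 named results, 27 lost the call and none reversed. Fits of 2 groups gave medians of -0.066 (IM 1h), 0.392 (IM 18h) and 0.159 (JTE 1h) in nuclear RNA and 22 calls at IM 6h, 0 at JTE 1h, 37 at KCl 1h and 65 at KCl 3h in mRNA. Members chosen by CTRL level gave nuclear medians of -0.070 (IM 1h), 0.236 (IM 18h), 0.035 (JTE 1h) and 0.294 (KCl 1h), nuclear counts of 52 (JTE 1h), 126 (KCl 1h) and 91 (KCl against JTE 1h), and mRNA counts of 3 (JTE 1h), 34 (KCl 1h) and 57 (KCl 3h), which cover fewer genes. Members with no facing high gene, fewer by construction, gave 0 calls (IM 1h), 135 (IM 18h), 80 (JTE 1h) and 195 (KCl 1h) and medians of -0.008 (IM 1h) and 0.216 (IM 18h). Without a filter, mRNA JTE 1h gave 11 calls. The cause of the other moves was not tested.

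The replicate block moved no nuclear count by over 1.5 times. In mRNA, where libraries share only a number, the replicate block gave 10 calls at JTE 1h and 47 at JTE 18h.

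Leaving out 1 library gave, in nuclear RNA, 0 to 1 calls and medians of -0.097 to -0.03 for IM 1h, 184 to 220 and 0.234 to 0.369 for IM 18h, 83 to 112 and 0.192 to 0.293 for JTE 1h, 284 to 314 and 0.68 to 0.837 for KCl 1h, 216 to 247 for KCl against JTE 1h and 186 to 219 for IM 18h against IM 1h. In mRNA the ranges were 18 to 34 (IM 6h), 122 to 140 (IM 18h), 2 to 6 (JTE 1h), 74 to 107 (JTE 6h), 8 to 21 (JTE 18h), 56 to 65 (KCl 1h) and 83 to 94 (KCl 3h), and 0 in every fit for IM 1h. Depth limits the 112 members with at most 3 counts in each nuclear CTRL library.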

Other observations

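The 3 miRNA genes among the members did not move alike in nuclear RNA. MIR4482, 41293 bases after ITPRIP, had 0.797, 0.763 and 1.06 CPM in CTRL cells, 1.27, 1.25 and 1.83 CPM with JTE-607 and 0.364, 0.874 and 0.877 CPM with KCl. It was not called against CTRL in any nuclear comparison, but KCl was below JTE-607 (log2 difference -1.01, SE 0.30; edgeR adjusted p 0.0231). MIR4435-1, 22950 bases after CYTOR, had 0.443, 0.584 and 0.404 CPM in CTRL cells and 0.675, 0.184 and 0.877 CPM with KCl, where the groups overlap. MIR146B was the member of the 3 that was called against CTRL. Both genes were described after their values were seen.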
